A study of Saccharomyces cerevisiae with 5 samples.

Results

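Small nucleolar RNAs (snoRNAs) are short, stable RNAs of the nucleolus that guide the chemical modification and the cleavage of pre-ribosomal RNA. Box C/D snoRNAs pair with rRNA and direct ribose methylation by the methyltransferase Nop1, and box H/ACA snoRNAs direct the conversion of uridine to pseudouridine by Cbf5. A few members of either class are needed for the cleavages that release mature rRNA rather than for a modification. In budding yeast most snoRNA genes have a promoter of their own, some share 1 transcript that is later cut apart, and some lie in introns of protein-coding genes.

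The members were all genes with a symbol of the form SNR and a number that carry the biotype snoRNA in RefSeq assembly R64, 76 in all, of which 47 are box C/D and 29 box H/ACA. Of these, 57 had a probe set assigned to 1 gene. A gene was kept if its probe set reached the background level, a signal of 11.4 (the 40th percentile of all values), on at least 2 of the 5 arrays. That left 42 snoRNA genes, 30 box C/D and 12 box H/ACA, among 4824 kept genes of the whole series.

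The cells were W303 yeast with the genotype PHO4-MYC::TRP1, a tagged copy of the phosphate-responsive transcription factor gene with its selection marker, and every array carried this genotype. Log-phase cultures were held without phosphate for 3 h and then moved to 0, 0.01, 0.1, 1 or 10 mM phosphate for 80 min. The 0 mM culture, starved throughout, is the baseline. Affymetrix arrays were run, 1 per dose, without replicates, and differences between single arrays carry no replicate error.

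The deposited values are MAS5 signals on a linear scale. Median signals per array ranged from 17.0 at 1 mM to 25.5 at 0 mM, and the median gene was lower at 10 mM than at 0 mM, by a log2 difference of -0.26. The 3' to 5' ratio of ACT1, a sign of RNA integrity, ranged from 1.11 at 0.1 mM to 3.00 at 0.01 mM. Signals of the poly-A spike-in controls were lower at 10 mM, with a 10.4-fold difference between the 0 and 10 mM arrays. All 5 listed a-cell mating genes and 0 of 3 alpha-cell genes were kept. Standard labelling for this platform primes on poly(A) tails, which mature snoRNAs lack; the labels do not name the primer, so which form of a snoRNA gave its signal was not tested.

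Most kept snoRNA genes were brighter in cells given 0.1 mM phosphate or more than in cells given 0 or 0.01 mM. Arrays of 0.1, 1 and 10 mM were compared with those of 0 and 0.01 mM (called the step comparison, a split known from these data), with limma and Benjamini-Hochberg adjustment over all 4824 genes. Of the 42 snoRNA genes 19 rose, 1 fell and 22 did not pass, whereas over all genes 11.4% were called higher and 22.0% lower. Fitted increases among the 19 ran from 1.65-fold to 5.03-fold, and of the 22 that did not pass 20 had a positive and 2 a negative estimate. All 3 arrays of the higher doses lay above both arrays of the lower doses in 25 members and below both in 2; over all genes these shares were 21.9% and 37.3%.

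Dim genes entered the count in part. Among the members 15 were below background at both 0 and 0.01 mM and so were kept through the higher doses alone. Of the 19 that rose 7 are of this kind: SNR35, SNR54, SNR56, SNR58, SNR61, SNR63 and SNR64. For these the filter fixed the direction and both low doses were set to 1 value, so their calls do not test the direction. Of the 22 members at or above background on all 5 arrays, 9 rose and 1 fell, against 11.9% and 20.4% of all genes that met this limit. The 3 higher doses lay above both lower ones in 11 of these 22 and below both in 2, against 23.1% and 34.9%.

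A straight line in dose order, fitted with limma to the same 5 arrays, called fewer members. It had 2 of 42 higher, SNR72 and SNR73, and 0 lower, against 1.16% and 8.13% of all genes. At an unadjusted p below 0.05 the line had 16 members higher and 1 lower, against 8.35% and 23.7% of all genes. Members kept through the higher doses alone could not have a negative slope. Of the 22 members at or above background on all 5 arrays, 9 were higher and 1 lower at this unadjusted p. The share of all genes that met this limit was not taken.

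**Figure D1:**
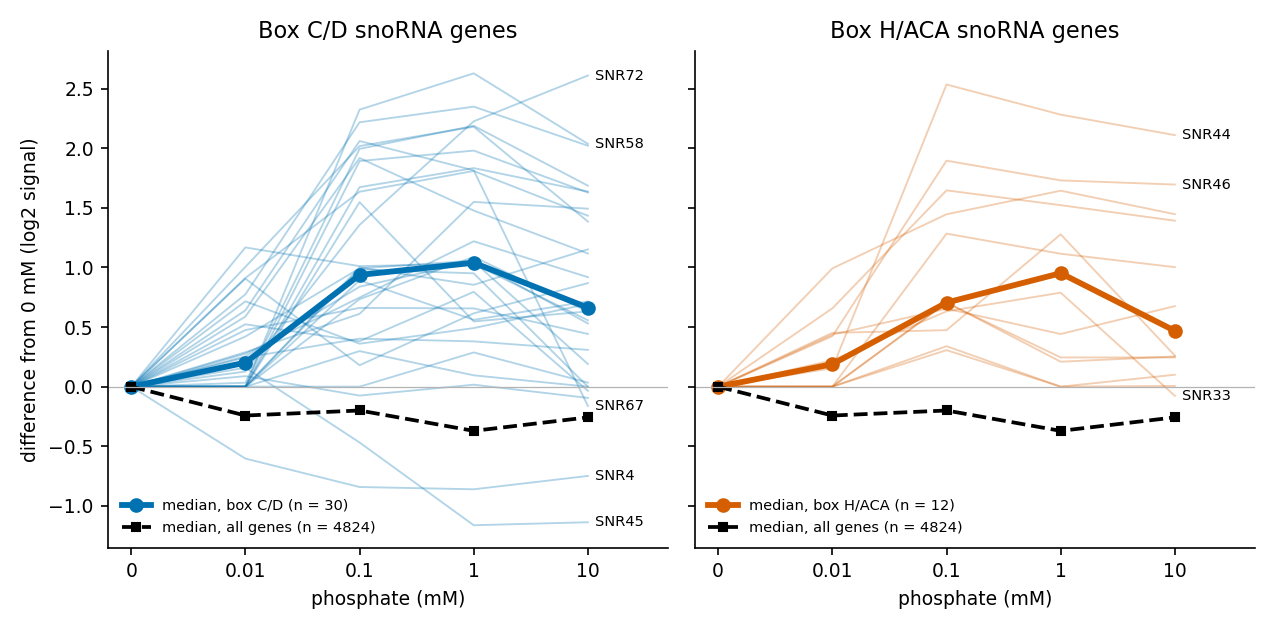
Log2 signal of each kept snoRNA gene minus its value at 0 mM (vertical axis) against phosphate in mM (horizontal axis, doses equally spaced), box C/D on the left and box H/ACA on the right; thin lines are genes, thick lines the class medians and dashed lines the median of all 4824 genes, with 1 array per dose and values below background set to it. Class medians are highest at 1 mM, 1.04 for box C/D and 0.95 for box H/ACA, where the median of all genes is -0.37.

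Relative to 0 mM, the median snoRNA gene differed by log2 values of 0.19, 0.87, 1.04 and 0.65 at 0.01, 0.1, 1 and 10 mM. The median of all genes at the same doses was -0.24, -0.20, -0.37 and -0.26. At the ends of the series 16 snoRNA genes were at least 2-fold higher and 1 at least 2-fold lower at 10 mM than at 0 mM, against 7.52% and 21.2% of all genes. At 1 mM these counts were 22 and 1, against 6.09% and 23.7% of all genes. Members kept through the higher doses alone could not come out lower in these counts. Of the 22 members at or above background on all 5 arrays, 8 were at least 2-fold higher and 1 lower at 10 mM. At 1 mM 14 of them were higher and 1 lower by this measure. Their median differences from 0 mM were 0.44, 0.79, 1.14 and 0.68 at 0.01, 0.1, 1 and 10 mM. For these differences the shares and medians of all genes that met this limit were not taken. The values for all genes given above include dim ones. The highest of the 5 arrays was that of 0 mM in 1 member, of 0.01 mM in 5, of 0.1 mM in 16, of 1 mM in 17 and of 10 mM in 3. Members kept through the higher doses alone could not be highest at 0 or 0.01 mM. Shares over all genes were not taken for this count, so it is a description only. With every array scaled to 1 median the medians at 10 mM were 0.83 for snoRNA genes and 0.18 for all genes, and after quantile normalization 0.87 and 0.09.

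The step between 0.01 and 0.1 mM was the largest of the 4 steps in 24 of the 42 members, a share to read beside 50.6% of all genes. Across it 14 members were at least 2-fold higher at 0.1 mM and 0 at least 2-fold lower, against 12.8% and 12.3% of all genes. Members below background at both 0 and 0.01 mM had their first step set to 0 and could not come out lower here. Of the 22 members at or above background on all 5 arrays, 5 were at least 2-fold higher and 0 at least 2-fold lower. The matching share of all genes was not taken. The 0.1 and 0.01 mM arrays had the lowest and the highest 3' to 5' ratio of ACT1, 1.11 and 3.00, whose part in the result was not tested. Trace phosphate came with smaller differences. At 0.01 mM 26 members were higher than at 0 mM, 1 was lower (SNR4) and 15 were at background on both arrays, while of all genes 28.5% were higher and 69.5% lower. With arrays at 1 median 26 members were again higher and 1 lower, with 51.1% and 45.1% of all genes. SNR50, a methylation guide for large-subunit rRNA, had 11.7, 26.3, 23.6, 23.9 and 17.2, and was 2.25-fold higher at 0.01 mM than at 0 mM. In the step comparison it did not pass (limma, adjusted p = 0.576).

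Between 1 and 10 mM the median member and the median gene differed in sign. At 10 mM 29 members were lower than at 1 mM and 13 higher, with a median of -0.18, whereas 31.4% of all genes were lower and 62.4% higher, with a median of 0.10. The value at 10 mM lay below those at both 0.1 and 1 mM in 25 members, and in 24.9% of all genes. After quantile normalization 35 of 44 members were lower at 10 than at 1 mM, against 40.2% of all genes. At least 2-fold lower at 10 than at 1 mM were 2 members, SNR67 and SNR11, and 0 were at least 2-fold higher, against 0.808% and 0.498% of all genes. This last step compares 1 array with 1 array and has no test.

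Other scalings changed the share of all genes called higher. With arrays at 1 median, 21 of 45 kept snoRNA genes (46.7%) rose in the step comparison and 0 fell, against 23.6% and 16.6% of all genes. After quantile normalization 21 of 44 (47.7%) rose and 0 fell, against 20.9% and 18.8%. With arrays scaled to equal poly-A spike-in signal 41 of 42 members and 78.6% of all genes were called higher.

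Single arrays also move the count. In limma with each array left out in turn, 12 of 43 kept members rose without 0 mM, 18 of 42 without 0.01 mM, 13 of 38 without 0.1 mM, 10 of 38 without 1 mM and 16 of 39 without 10 mM. The shares of all genes called higher in these fits were 13.5%, 9.69%, 6.48%, 5.46% and 6.55%. The same 10 genes passed in each of these fits: SNR13, SNR35, SNR44, SNR46, SNR54, SNR56, SNR58, SNR63, SNR69 and SNR72. Of these, SNR35, SNR54, SNR56, SNR58 and SNR63 were below background at both 0 and 0.01 mM. The filter kept them through the higher doses alone, so the direction of their calls was fixed.

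**Figure D2:**
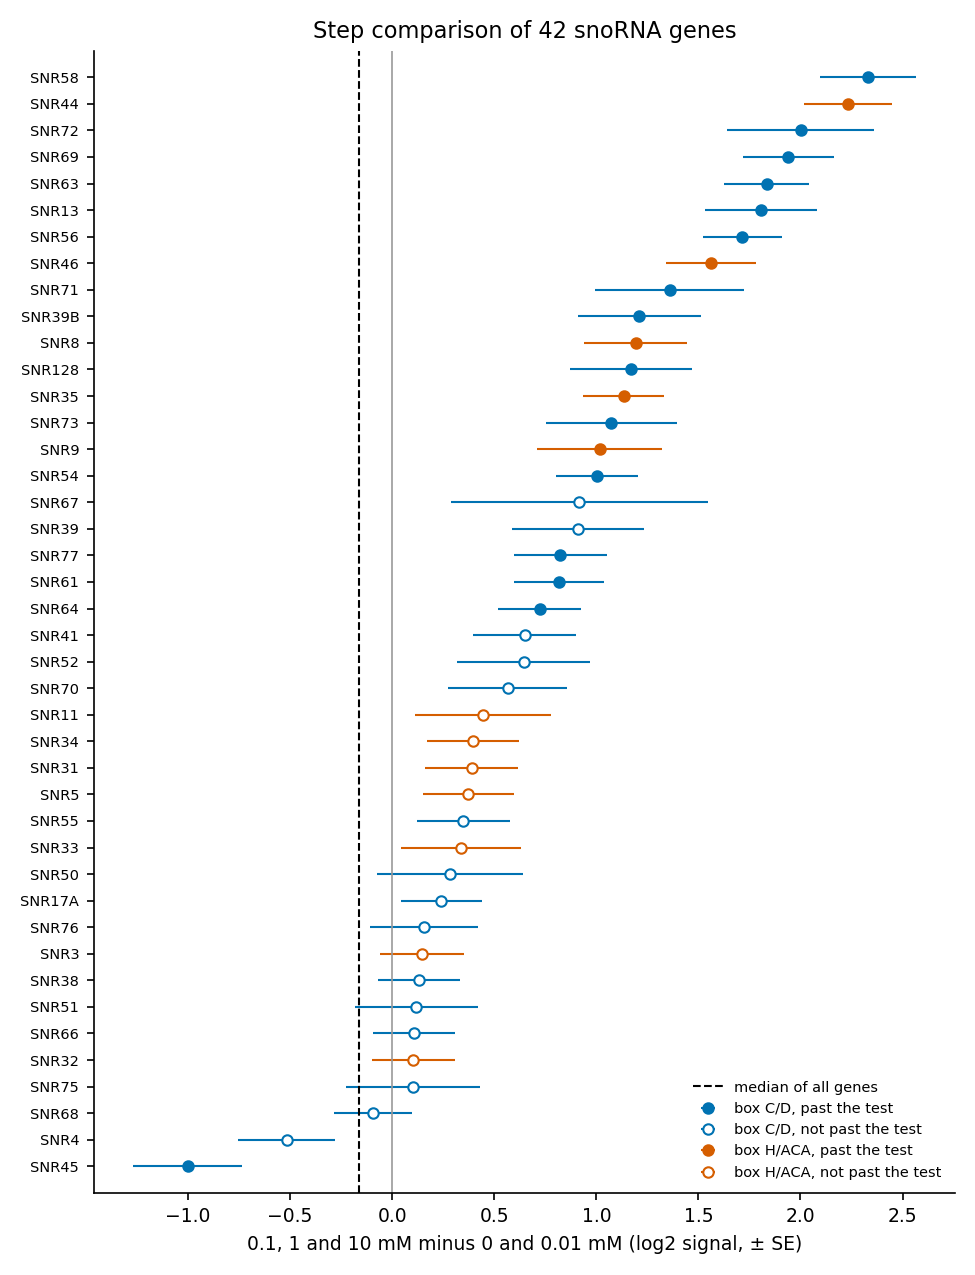
Step comparison for each of the 42 kept snoRNA genes: mean log2 signal at 0.1, 1 and 10 mM minus that at 0 and 0.01 mM (horizontal axis, bars are the standard error from limma, 5 arrays), one gene per row. Filled points passed at an adjusted p of 0.05; SNR58 lies highest and SNR45, the 1 filled point left of 0, lowest, with the median of all genes, -0.16, as a dashed line.

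Among box C/D methylation guides, SNR58, a guide for large-subunit rRNA, had the largest step estimate. Its signals were 2.30, 6.88, 57.3, 70.7 and 46.9 from 0 to 10 mM. Both low-dose values are below background, so SNR58 was kept through the higher doses alone. This fixed the order of the 2 dose groups, which did not overlap. SNR58 was at least 4.10-fold higher at 10 mM than at 0 mM. SNR58 rose by 2.33 ± 0.23 (log2, SE, 5 arrays; limma, adjusted p = 0.000683). Both low-dose values were raised to the background level, so the SE and the p-value hold no scatter between them.

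SNR63, SNR69 and SNR13, which also guide methylation of large-subunit rRNA, rose as well. SNR63 gave 2.70, 6.42, 42.5, 45.1 and 35.4, SNR69 16.3, 16.6, 64.8, 74.1 and 52.3, and SNR13 17.1, 29.2, 79.3, 86.9 and 69.2. In each the highest array was that of 1 mM, and both low-dose arrays of SNR63 were below background. They rose by 1.83, 1.94 and 1.81 on the log2 scale (limma, adjusted p = 0.00106, 0.00114 and 0.00350).

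SNR56, a methylation guide for small-subunit rRNA, had 7.27, 9.82, 36.5, 40.8 and 35.6, at least 3.11-fold higher at 10 mM than at 0 mM (adjusted p = 0.00107 in limma's step comparison). SNR71 reached 23.0 at 0.01 mM against 7.35 at 0 mM, peaked at 51.9 at 1 mM and stood at 29.9 at 10 mM. SNR64 and SNR61, also large-subunit guides, had 3.95, 9.06, 21.2, 16.9 and 18.8, and 4.44, 8.74, 19.0, 24.3 and 17.7. Like SNR56, they were below background at both 0 and 0.01 mM. SNR39B has 2 probe sets, 1 of them with 6.93, 13.1, 32.8, 26.7 and 17.5 and the other with 10.5, 22.6, 56.9, 37.9 and 35.2, both highest at 0.1 mM. These 4 genes rose (limma, adjusted p from 0.0210 to 0.0317), but with 1 array left out SNR71 and SNR39B passed in 2 of 5 fits, SNR61 in 1 and SNR64 in 0, with an adjusted p of up to 0.107.

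The snoRNAs needed for cleavage of pre-rRNA were measured in part. SNR128, known as U14, takes part in small-subunit rRNA processing and had 56.8, 106.9, 177, 199 and 154 from 0 to 10 mM. It was already 1.88-fold brighter at 0.01 mM than at 0 mM, and rose by 1.17 ± 0.30 (adjusted p = 0.0229 in limma). Without the 0 mM, the 0.1 mM or the 1 mM array it did not pass, with an adjusted p of up to 0.0889. SNR17A, 1 of the 2 genes for U3, stayed near background at 10.8, 13.6, 15.1, 14.9 and 14.2 and did not pass (adjusted p = 0.382). SNR17B, SNR30 and SNR10, which also act in processing, have no probe set assigned to 1 gene.

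Among box H/ACA guides the largest step estimate was that of SNR44, an intronic guide described below with its host. SNR46, a pseudouridine guide for large-subunit rRNA, had 4.32, 15.3, 42.6, 37.9 and 37.0, at least 3.24-fold higher at 10 mM than at 0 mM. SNR8 had 66.3, 104, 207, 190 and 174, and SNR9 had 15.1, 30.0, 41.1, 47.1 and 41.1; both guide large-subunit positions. In these 3 genes the signal at 0.01 mM lay between that at 0 mM and all later doses.

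SNR35, the guide for a small-subunit position that is modified further, had 5.61, 9.23, 27.8, 24.8 and 22.9, with both low-dose values below background. All 4 rose in the step comparison (limma, adjusted p = 0.00255 for SNR46, 0.0116 for SNR8, 0.0394 for SNR9 and 0.00585 for SNR35). SNR8 did not pass without the 1 mM array (adjusted p = 0.051), and SNR9 passed only when the 0.01 mM array was the one left out, with an adjusted p of up to 0.169. The 7 H/ACA genes that did not pass were SNR3, SNR5, SNR11, SNR31, SNR32, SNR33 and SNR34. SNR5 had 74.7, 101, 118, 101 and 119, and was 1.60-fold higher at 10 mM than at 0 mM (adjusted p = 0.235 in limma's step comparison). SNR11 had 33.6, 46.0, 46.7, 81.5 and 40.3, and SNR33 had 45.6, 53.2, 70.7, 78.8 and 43.3. Both were highest at 1 mM and at 10 mM stood near their value in starved cells.

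Counts were taken per class as well. In the step comparison 14 of 30 box C/D genes rose and 1 fell, and 5 of 12 box H/ACA genes rose and 0 fell (limma). Of all genes 11.4% rose and 22.0% fell. Of the box C/D genes that rose, SNR54, SNR56, SNR58, SNR61, SNR63 and SNR64 were kept through the higher doses alone. Of the box H/ACA genes that rose, SNR35 was. The filter fixed the direction of these calls, and values raised to background also enter the medians and quartiles below. At an unadjusted p below 0.05 box H/ACA also had 5 and 0, where 774 and 1376 of all 4824 genes passed. The median difference between 10 and 0 mM was 0.66 for box C/D and 0.47 for box H/ACA, and after quantile normalization 0.90 and 0.76. The middle of the box C/D values, from the first to the third quartile, ran from 0.07 to 1.42 and that of box H/ACA from 0.21 to 1.41. The difference between the classes was not tested.

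The 2 members with the most negative step estimates, SNR45 and SNR4, are box C/D snoRNAs that work apart from methylation and guide acetylation of small-subunit rRNA by Kre33. SNR45 had signals of 50.8, 56.7, 36.7, 22.7 and 23.1 from 0 to 10 mM, and the groups did not overlap. It fell by 1.00 ± 0.27 on the log2 scale (limma, adjusted p = 0.0267), the single fall among the members, and at 10 mM its signal was 2.20-fold below that of the starved cells. With arrays at 1 median its step estimate was -0.68 (adjusted p = 0.0676) and after quantile normalization -0.70 (adjusted p = 0.0638), so the call was lost while the sign stayed. At equal spike-in signal the estimate was 1.18. It also did not pass without the 0.01, the 1 or the 10 mM array, with an adjusted p of up to 0.0973 in limma.

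SNR4 had signals of 163, 108, 91.2, 90.0 and 97.2, highest in the starved cells and lower on every other array. Its step estimate of -0.52 ± 0.24 did not pass (limma, adjusted p = 0.137). Without the 0.01 mM array it was -0.82 and passed as lower (adjusted p = 0.0351), the 1 such fit among the 5 that left out an array. At equal spike-in signal the estimate of SNR4 was 1.66 (adjusted p = 0.0211). The third member with a negative estimate, the methylation guide SNR68, lay just above background at 12.2, 13.0, 11.6 and 12.4, and below it at 10 mM with 7.22.

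Genes that share a transcript did not all change by the same amount. The 7 genes SNR72 to SNR78 lie side by side and are cut from 1 precursor. SNR72 had 27.6, 30.1, 70.7, 129 and 169, the only kept one of them with its highest value at 10 mM, and was 6.11-fold higher at 10 mM than at 0 mM. It rose in both fits, with a slope of 0.73 ± 0.10 per dose (limma, adjusted p = 0.0395) and a step of 2.001 ± 0.36 (adjusted p = 0.00641). Its neighbour SNR73 had 12.9, 15.8, 19.7, 37.8 and 36.4, was 2.82-fold higher at 10 mM than at 0 mM and also rose in both, with a slope of 0.42 ± 0.09 (adjusted p = 0.0415). The slope of SNR72 did not pass without the 0 or the 0.01 mM array, nor with arrays at 1 median. That of SNR73 passed in none of the fits that left out an array, and neither at 1 median nor after quantile normalization. The step of SNR73 did not pass without the 0, the 1 or the 10 mM array, with an adjusted p of up to 0.126.

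Of the other genes of the unit 1 rose. SNR77, a methylation guide for small-subunit rRNA, had 118, 143, 198, 274 and 223 and rose by 0.82 ± 0.23 in the step comparison (limma, adjusted p = 0.0305), a call lost without the 0, the 1 or the 10 mM array (adjusted p of up to 0.103). SNR75 had 75.9, 142, 86.0, 116 and 139, and SNR76 had 42.2, 69.4, 54.2, 59.4 and 68.3. Both were highest at 0.01 mM, the array with the highest 3' to 5' ratio of ACT1, and neither passed (adjusted p = 0.838 and 0.679). SNR74 and SNR78 were below background on every array. Whether neighbours differ from each other was not tested.

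**Figure D3:**
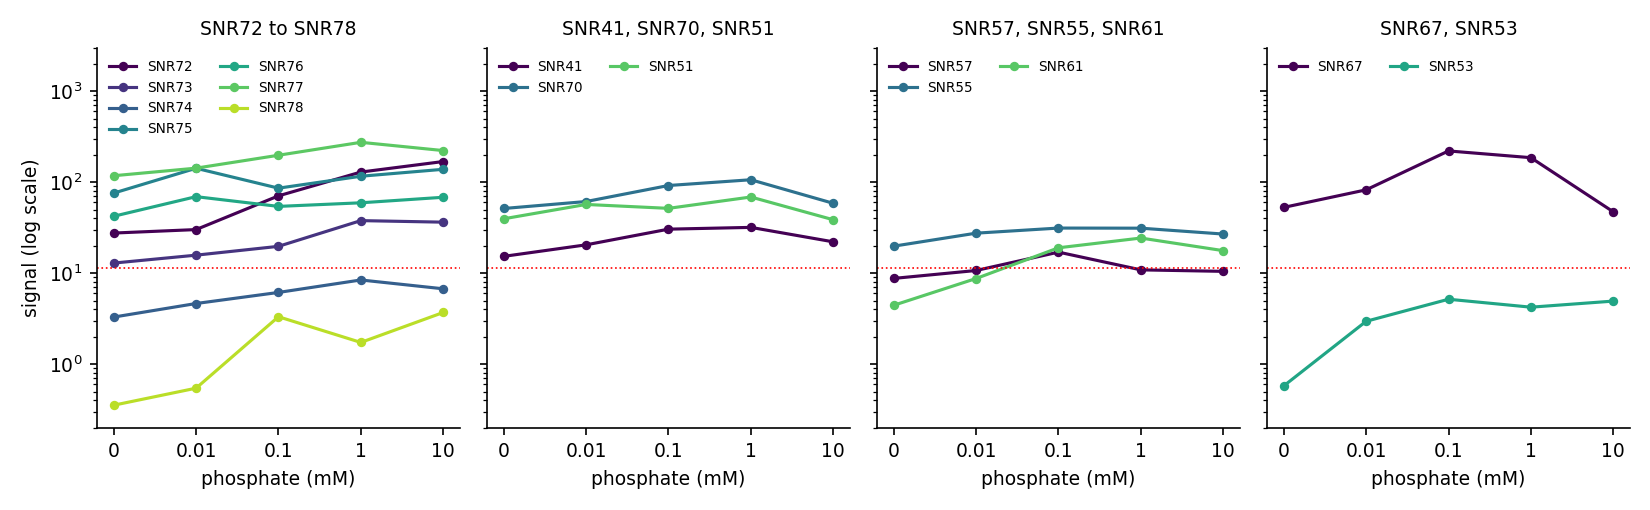
Signal (vertical axis, log scale) against phosphate in mM for genes of 4 shared transcripts, 1 array per dose; the dotted line is the background level of 11.4. SNR72 reaches 169 at 10 mM while SNR76 stays between 42.2 and 69.4, and SNR67 drops to 47.2 at 10 mM.

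The unit of SNR41, SNR70 and SNR51 was highest at 1 mM in all 3 genes and 0 passed the step comparison (limma; 1 was higher at an unadjusted p below 0.05, SNR41). SNR70 had 51.4, 61.3, 91.9, 106 and 58.6, so its values at the ends of the series differed by 1.14-fold. SNR51 had 39.6, 56.9, 51.6, 68.8 and 38.7, and SNR41 had 22.1 at 10 mM and 15.3 at 0 mM. Of SNR57, SNR55 and SNR61, the first was above background on 1 array and was not kept.

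SNR67, a large-subunit methylation guide, had the steepest drop at the top of the dose range. Its signals were 52.8, 82.4, 220, 186 and 47.2 from 0 to 10 mM. The value at 10 mM was 3.93-fold lower than at 1 mM, the largest fall over this step among all 4824 genes, and no other array measured that dose. It did not pass the step comparison on 5 arrays (limma, adjusted p = 0.297). SNR52, a guide for both subunits, was below background at 0, 0.01 and 10 mM, with 5.65, 10.7, 22.6, 22.1 and 8.89. Without the 10 mM array both genes passed as higher. SNR52 was kept through 0.1 and 1 mM alone, so the direction of its call was fixed by the filter.

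Intronic snoRNAs were set beside their host genes, since both come from 1 primary transcript. SNR44 lies in RPS22B, which encodes a protein of the small ribosomal subunit. SNR44 had 41.0, 45.7, 238, 200 and 177, and rose by 2.23 ± 0.22 (limma, adjusted p = 0.000607). RPS22B had 112, 259, 934, 1018 and 839. The host was already 2.32-fold brighter at 0.01 mM than at 0 mM and the snoRNA 1.11-fold.

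SNR54 lies in IMD4, a gene of the IMP dehydrogenase family. SNR54 had 4.39, 3.998, 22.9, 20.7 and 25.4 and rose by 1.00 ± 0.20 (adjusted p = 0.00954 in limma), and IMD4 had 222, 103, 581, 595 and 812. Both were highest at 10 mM; the 2 low-dose values of SNR54 are below background and so have no order. SNR39 in RPL7A, a gene for a large-subunit protein, had 4.82, 7.79, 33.4, 16.7 and 17.7. SNR38 in TEF4, an elongation factor gene, had 7.30, 5.52, 14.1, 12.2 and 10.3. Both snoRNAs were highest at 0.1 mM. Neither passed (adjusted p = 0.0667 and 0.645), while the step comparison had RPL7A 8.26-fold and TEF4 2.45-fold higher. SNR39 was below background at 0 and 0.01 mM, and SNR38 at 0, 0.01 and 10 mM. The background level therefore limits their fitted differences, and whether they differ from their hosts was not tested. Hosts of snoRNAs with no probe set of their own, ASC1, RPL7B and NOG2, rose as well and EFB1 did not pass. Thus 7 of 8 hosts rose and 0 fell, against 11.4% and 22.0% of all genes.

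**Figure D4:**
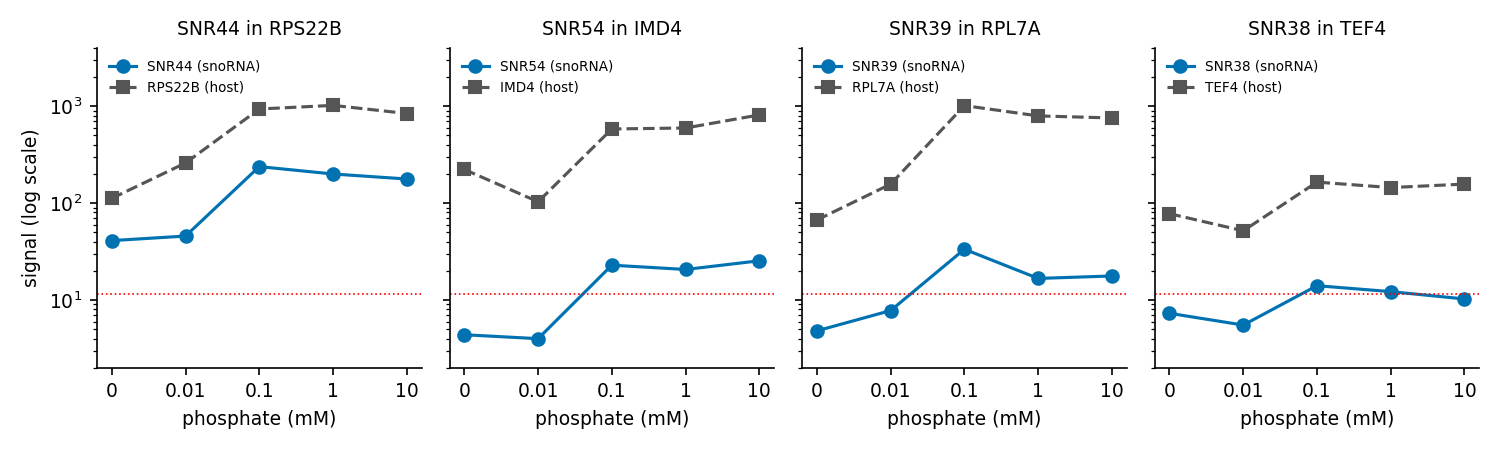
Signal (vertical axis, log scale) of 4 intronic snoRNAs (circles) and their host genes (squares) against phosphate in mM, 1 array per dose; the dotted line is the background level. Each snoRNA and each host is higher at 0.1 mM than at 0.01 mM, for example 238 against 45.7 for SNR44.

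By arrangement, 12 of 26 genes with a transcript of their own rose and 1 fell. In shared transcripts 5 of 12 rose and 0 fell, and 2 of 4 intronic genes rose and 0 fell. Of those that rose, SNR35, SNR56, SNR58, SNR63 and SNR64 with their own transcript were kept through the higher doses alone. So were SNR61 in a shared transcript and the intronic SNR54. The filter fixed the direction of these calls. Over all genes 11.4% rose and 22.0% fell. These shares were not compared by a test.

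Of 7 measured genes for proteins that bind snoRNAs, 4 rose in the step comparison and 0 fell, against 11.4% and 22.0% of all genes. Of the box C/D proteins, NOP56, a core scaffold protein, had 96.0, 104, 265, 286 and 285 and the methyltransferase gene NOP1 had 226, 164, 514, 384 and 442. Both rose, 2.78-fold and 2.30-fold in the step comparison (limma, adjusted p = 0.00184 and 0.00920). NOP58 and SNU13, which encode the other core proteins, were 1.38-fold and 1.48-fold higher and did not pass (adjusted p = 0.136 and 0.0541).

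Of the box H/ACA proteins, GAR1 had 421, 367, 987, 970 and 894 and rose 2.42-fold, and NHP2 rose 1.64-fold (limma, adjusted p = 0.00370 and 0.0248). The pseudouridine synthase gene CBF5 had 302, 320, 433, 468 and 377 and did not pass (adjusted p = 0.131), and NOP10 has no probe set of 1 gene. All 7 protein genes had each of the 3 higher doses above both lower ones, as did 21.9% of all genes.

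**Figure D5:**
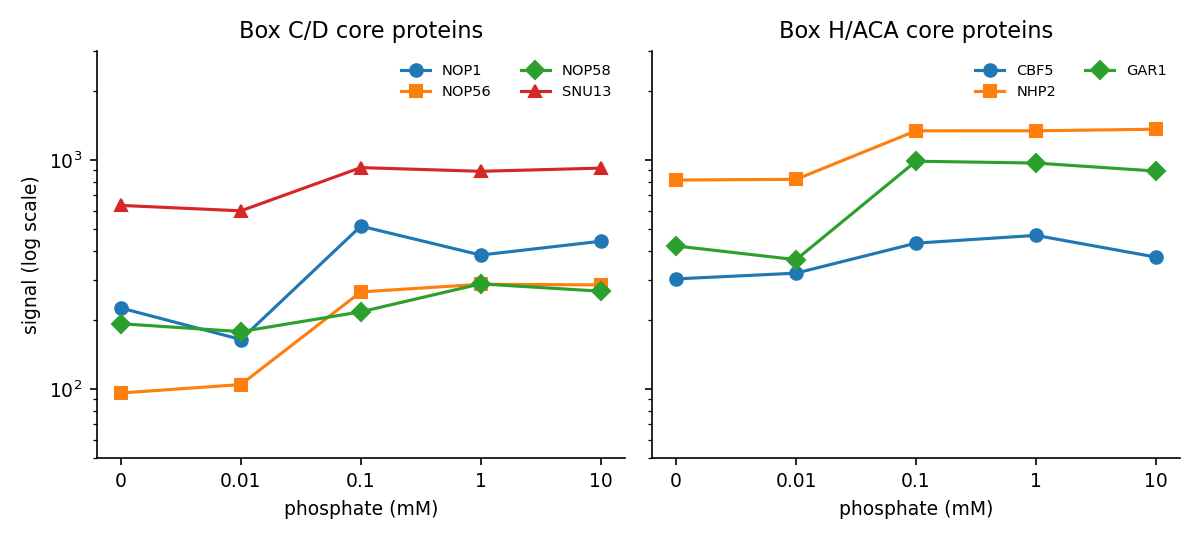
Signal (vertical axis, log scale) of the measured core proteins of box C/D (left) and box H/ACA (right) particles against phosphate in mM, 1 array per dose. The step between 0.01 and 0.1 mM is visible in GAR1, 987 at 0.1 mM and 367 at 0.01 mM, and in NOP56, 265 at 0.1 mM and 104 at 0.01 mM.

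Other small RNAs with structural roles were counted too. Of 9 listed, 5 were kept and 1 rose in the step comparison, the telomerase RNA gene TLC1, 2.41-fold (limma, adjusted p = 0.0106). Over all genes 11.4% rose. The spliceosomal RNA genes SNR14, for U4, and SNR7-L, for U5, had 25.3, 30.1, 48.8, 58.7 and 31.8, and 18.5, 30.4, 64.9, 50.01 and 27.2. Both were highest at 0.1 or 1 mM and lower again at 10 mM, and did not pass (adjusted p = 0.103 and 0.119). SNR19, for U1, and RPR1, for the RNA of RNase P, did not pass either.

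Ribosomal RNA, another RNA without a poly(A) tail, has control probe sets on these arrays. Of 10 rRNA control probe sets 9 were lower at 10 mM than at 0 mM, by unlike amounts. The ratio of 0 to 10 mM ran from 1.32 to 16.9 among small-subunit probe sets and from 0.80 to 15.1 among large-subunit ones. The geometric mean of the small-subunit probe sets was 46.8 at 10 mM and 173 at 0 mM, and that of the large-subunit ones was 77.8 at 10 mM and 345 at 0 mM. With arrays at 1 median these means were lower at 10 mM by factors of 2.66 and 3.20, and at equal spike-in signal higher by factors of 2.82 and 2.35. The part of RNA composition or of labelling in the snoRNA values was not tested.

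The remaining snoRNA genes were dim. Of the 15 measured but not kept, 12 were below background on every array and 3 were above it on 1 array: SNR36, SNR48 and SNR57. Just inside the limit stood SNR32, with 14.1 at 0.1 mM and 11.5 at 10 mM, and just outside it SNR36, with 11.7 at 10 mM and 11.2 at 1 mM. Levels of different probe sets cannot be set against each other, so a dim probe set does not show that its snoRNA is scarce.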

How the data were processed

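The file holds intensity values, deposited by the authors as 1 linear MAS5 signal per probe set and array. MAS5 is named in the submitters' processing notes; its version and scaling target: not given in the sources used here. Probe sets were named through the platform annotation and RefSeq assembly R64: of 9335, 6504 had 1 gene, 328 several and 2503 were not listed. Values under the background level (40th percentile, 11.4) were raised to that level before taking log2; kept probe sets of a gene were averaged. Lines and steps were fitted to all 4824 genes with limma 3.58.1 in R 4.3.3 (eBayes, Benjamini-Hochberg at 0.05). The step fit, but not the line, was tested on simulated data, for its mean estimate against the true change. The error is the scatter of 5 arrays, and their number limits the precision. Nothing in the labels says whether cultures were grown in parallel. Folds given as "at least" set the background level in place of a lower value. Members, lists, tests and other settings were chosen with earlier results of these data known. Every member past a test, the 8 with the largest and smallest differences between 10 and 0 mM, processing and acetylation snoRNAs, intronic ones with hosts, and snoRNP proteins were named by rule; others were named after their values were seen. A planned ranking of genes by likeness of pattern is left out, since 5 arrays are too few for correlations, and promoter motifs were not analysed here. Other settings changed the scaling, the background level, the filter, the pseudocount, the probe set, the variance prior and the arrays used.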

Additional observations from a re-analysis of the deposited data

How the results depend on the processing

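No paired analysis was possible because each dose has 1 array. Of the 19 snoRNA genes that rose in the step comparison, SNR13, SNR44, SNR58 and SNR69 passed under every setting tried, and so did SNR35 and SNR54 wherever they were kept. At the main background level SNR58, SNR35 and SNR54 were kept through the higher doses alone, which fixed the direction of their calls. Counts that rose in the step comparison were 41 at equal spike-in signal, 8 with background at the 60th percentile (25 genes kept), 10 with no filter on dim probe sets, and 10 to 18 with 1 array left out; the other settings gave 19 to 28. The count that fell was 0 at 1 median, under quantile normalization, at equal spike-in signal and with no filter, and 0 to 1 with 1 array left out. On dose order the members higher were 0 at 1 median, 1 under quantile normalization, 42 at equal spike-in signal, 10 and 0 with background at the 20th and 60th percentiles, 4 with a pseudocount, 0 with no filter, 5 with a filter on mean signal, 4 with a variance trend and 0 to 10 with 1 array left out, and those lower were 0 in each. With log10 dose, 0 mM set to 0.001 mM spaces the doses equally, so that fit repeats dose order. Median differences between 10 and 0 mM were 4.03 (all snoRNA genes), 4.04 (box C/D) and 3.85 (box H/ACA) at equal spike-in signal, where all genes had 3.12. For all snoRNA genes the median was 0.26 with background at the 60th percentile, 0.25 with no filter, and 0.65 to 0.70 without the 0.01, 0.1 or 1 mM array, none of which enters this difference; for box C/D it was 0.15 at the 60th percentile and 0.66 to 0.70 without those arrays; for box H/ACA it was 0.83 at the 20th percentile, 0.84 with a filter on mean signal and 0.47 to 0.84 without those arrays. Fewer or more dim genes enter under these filters, and other causes were not tested. Of 42 single-gene differences, 20 moved by more than the median residual SD of 0.33 under each of the 2 scalings and none with a 2-fold difference changed sign; SNR33, SNR51 and SNR67, with differences of -0.08, -0.03 and -0.16, had 0.39, 0.44 and 0.31 at 1 median. Dim signal limits 20 members, which were below background at 0 or 10 mM.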

Other observations

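Genes for the assembly and processing of snoRNAs were measured on the same arrays. Of 9 assembly factors, all kept, 1 rose in the step comparison (limma) and 0 fell, where 11.4% and 22.0% of all genes were called: TAH1, a co-chaperone subunit in box C/D assembly, had 116, 133, 220, 180 and 279 from 0 to 10 mM and was 1.79-fold higher (adjusted p = 0.0356). The helicase genes RVB1 and RVB2 did not pass, with signals of 282 and 214 at 10 mM and of 316 and 201 at 0 mM. NAF1, an H/ACA assembly factor, had 98.1, 32.6, 96.3, 80.3 and 117, lowest at 0.01 mM, and did not pass (adjusted p = 0.214).

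Of 12 genes for the release, trimming and decay of snoRNA precursors 3 rose in the step comparison and 0 fell (limma; 1 was lower at an unadjusted p below 0.05). Over all genes 11.4% rose and 22.0% fell. RNT1, the RNase III that cuts snoRNA precursors, had 59.2, 24.8, 93.4, 68.7 and 99.6 and was 2.24-fold higher (adjusted p = 0.0495). LHP1, the yeast La protein gene, was 2.09-fold higher (adjusted p = 0.0211), and PAP2, a poly(A) polymerase gene of nuclear RNA surveillance, 1.54-fold (adjusted p = 0.0448). The exonuclease gene XRN1 had 108, 105, 81.2, 68.4 and 62.7 and did not pass (adjusted p = 0.0634). Genes of the nuclear exosome and of the Nrd1 termination pathway, RRP6, NRD1, NAB3 and SEN1, did not pass.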
